A study of Mus musculus with 17 samples.

Results

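The acrosome is the cap-shaped secretory vesicle on the sperm head, and the RNA of 10 genes that encode its contents and membranes was followed through spermatogenesis of the mouse. The genes were taken by symbol from the deposited gene table: the protease gene Acr with Acrbp and Spink2, the zona-binding genes Zpbp and Zpbp2, and Acrv1, Spaca1, Spaca3, Spaca4 and Spaca7. They are 10 of the 24594 genes in the table, all 10 were found there, and all 10 passed the filter on low values. Testis cells of C57BL/6JRj males, labelled wild type and 3 months old, were stained with Hoechst 33342 and SYTO 16 and sorted into 5 populations, each with 3 RNA-seq libraries. These were spermatocytes in leptotene or zygotene (LZ) and in pachytene or diplotene (PD), round spermatids (RS), and elongating spermatids at an early (EES) and a late (LES) stage. Single libraries, sorted with Hoechst 33342 alone, came from round spermatids of juvenile males at 23 dpp (RS23) and from elongating spermatids sorted by a Prm1-EGFP reporter (PrmES). For RS23 and PrmES the age and genotype labels repeat those of the adult samples, and their titles were followed. The labels number the replicates and do not say whether they came from separate animals, so the tests measure the spread between these libraries, which may be technical.

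The acrosome grows from Golgi-derived vesicles that fuse on one side of the round spermatid nucleus, flatten into a cap and are reshaped as the spermatid elongates. Its matrix holds hydrolases in inactive form, above all proacrosin, together with binding proteins and inhibitors that keep them so until the acrosome reaction near the egg. Transcription stops during elongation, so proteins needed late are made from RNA that was transcribed earlier and stored.

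All positions are on GRCm38.p6. Acr lies on the plus strand of chromosome 15 from 89568326 to 89578853, Acrbp on the plus strand of chromosome 6 from 125049927 to 125063265, and Spink2 on the minus strand of chromosome 5 from 77205106 to 77216258. Zpbp lies on the minus strand of chromosome 11 from 11279624 to 11464223, and Zpbp2 on the plus strand of the same chromosome from 98551097 to 98558665. Acrv1 lies on the plus strand of chromosome 9 from 36693220 to 36698845. Spaca1 lies on the minus strand of chromosome 4 from 34024872 to 34050067, Spaca3 on the plus strand of chromosome 11 from 80858363 to 80867814, Spaca4 on the minus strand of chromosome 7 from 45725107 to 45725816, and Spaca7 on the plus strand of chromosome 8 from 12573036 to 12600739. In GENCODE, Acrbp, Spaca4, Spaca7 and Zpbp overlap genes on the opposite strand (4930557K07Rik, Fam83e, D630011A20Rik and Spata48 among them). Strandedness of the libraries is not given in the sources used here, and reads of such pairs cannot be told apart if strand was not used.

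RefSeq promoter windows were found for 9 of the 10 genes, all but Acr, with 13 start sites among them. The 250 bases upstream of a start are printed for 5 genes that hold a motif named below, from both groups of genes that the results separate. Spaca1, Spaca3 and Acrv1 rose in round spermatids, and Acrbp and Zpbp2 rose in pachytene/diplotene spermatocytes. The printed bases are 5′ to 3′ on the gene's strand (minus for Spaca1, plus for the others), at chr4:34050068-34050317, chr11:80858113-80858362, chr9:36692970-36693219, chr6:125049677-125049926 and chr11:98550847-98551096 in the order below. Capitals mark the letters searched on either strand: TGACG, the core of the cAMP response element (CRE) bound by the spermatid activator CREM; GTTGCC, part of the site of the RFX factors; CAACTG, the core bound by MYB factors; ACAAT, the core bound by SOX factors; and GTGTGT, the repeat bound by the RNA- and DNA-binding protein TDP-43.
Spaca1: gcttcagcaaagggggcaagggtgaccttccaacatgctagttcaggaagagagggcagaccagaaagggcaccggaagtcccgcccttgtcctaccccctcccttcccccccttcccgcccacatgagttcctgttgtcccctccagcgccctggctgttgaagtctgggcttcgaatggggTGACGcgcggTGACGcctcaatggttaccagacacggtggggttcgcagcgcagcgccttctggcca
Spaca3: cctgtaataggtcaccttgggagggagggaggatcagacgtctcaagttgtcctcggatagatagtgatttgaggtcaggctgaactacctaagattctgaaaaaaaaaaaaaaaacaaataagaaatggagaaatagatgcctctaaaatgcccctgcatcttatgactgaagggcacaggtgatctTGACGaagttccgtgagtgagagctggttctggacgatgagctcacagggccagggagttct
Acrv1: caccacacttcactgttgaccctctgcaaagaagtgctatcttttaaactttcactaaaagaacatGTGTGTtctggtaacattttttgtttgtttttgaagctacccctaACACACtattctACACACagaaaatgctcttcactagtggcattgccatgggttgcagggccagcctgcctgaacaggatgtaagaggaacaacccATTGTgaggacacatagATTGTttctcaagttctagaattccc
Acrbp: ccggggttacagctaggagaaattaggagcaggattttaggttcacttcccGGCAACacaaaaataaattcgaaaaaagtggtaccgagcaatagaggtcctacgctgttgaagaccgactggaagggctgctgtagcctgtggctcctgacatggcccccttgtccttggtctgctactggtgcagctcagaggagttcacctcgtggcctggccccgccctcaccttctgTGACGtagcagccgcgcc
Zpbp2: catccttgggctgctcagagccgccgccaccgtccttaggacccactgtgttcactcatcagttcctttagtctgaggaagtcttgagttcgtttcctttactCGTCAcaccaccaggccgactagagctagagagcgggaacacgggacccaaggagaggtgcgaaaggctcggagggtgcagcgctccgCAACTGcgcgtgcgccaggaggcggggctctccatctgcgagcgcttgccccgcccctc

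Over the whole windows of 300 bases, which also hold the first 50 transcribed bases, TGACG stood in at least 1 promoter of 4 of the 9 genes. Counted by promoter, it was in 6 of their 13, some of which overlap, and in 20.8% of all 32851 RefSeq promoters. The 4 genes were Spaca1, which had it at -67 and -57 from the start used above, Spaca3, Acrbp and Zpbp2, so that it occurred in both groups. Its full palindrome TGACGTCA, which contains it, was in none of the 9 genes and in 1.79% of all promoters. GTGTGT was in 3 genes (Acrv1, Spaca7 and Spink2), in 3 of the 13 promoters and in 17.4% of all promoters. GTTGCC was in Acrbp alone, CAACTG in Zpbp2 alone and ACAAT in Acrv1 alone, each in 1 of the 13 promoters. They were in 12.5%, 13.7% and 31.0% of all promoters, in that order. The TATA box letters TATAAA, searched on the gene's strand, were in none of the 9 genes and in 8.32% of all promoters. No motif was shared by all genes of either group, and Zpbp and Spaca4, which are not printed, held none of the motifs searched.

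The libraries held 90.6 to 159.2 M reads, and the smallest read count of any of the 10 genes in a library of the 5 stages was 97, for Spaca4 in PD. Genes that mark the stages followed the labels: Dmc1, a meiotic recombinase, was at 46.3 to 74.9 RPKM (a read count scaled to exon length in kilobases and to library size in M reads) in LZ and at no more than 3.26 RPKM elsewhere, Piwil1 was at 104 to 127 RPKM in PD, and the protamine gene Prm1 was at 9452 RPKM or more in EES and LES. LZ replicate 3 and EES replicate 2 stood apart from the other libraries of their stages. Piwil1 was at 62.5 RPKM in LZ replicate 3, against 6.16 and 9.06 RPKM in LZ replicates 1 and 2, and the 6 listed pachytene/diplotene markers summed to between 59.1 and 176 RPKM in LZ. The 8 listed elongating-spermatid markers summed to 50141 RPKM in EES replicate 2, against 130603 and 112357 RPKM in EES replicates 1 and 3. The pachytene/diplotene markers summed to 116 RPKM there, against 24.7 and 36.4 RPKM. Their sum was 554 to 615 RPKM in RS, close to the 632 to 726 RPKM in PD. A higher sum therefore does not tell RNA of PD from RNA of RS. The medians of these markers were 105 to 122 RPKM in PD and 17.1 to 18.1 RPKM in RS. In EES replicates 1, 2 and 3 these medians were 1.62, 3.80 and 2.46 RPKM. The 6 listed round-spermatid markers summed to more in EES (957 to 1190 RPKM) than in RS (170 to 208 RPKM). Their medians were 27.3, 34.8 and 38.7 RPKM in RS replicates 1, 2 and 3. In EES replicates 1, 2 and 3 the medians were 6.27, 93.8 and 11.2 RPKM. The sum therefore does not mark RS, and the median was below that of RS in EES replicates 1 and 3 only. For the 10 genes, the main comparisons with EES are given with and without EES replicate 2, and those with LZ with and without LZ replicate 3. Values of other gene lists, counts of libraries without overlap and results on other scales use all libraries.

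The 10 genes fell into 2 groups of 5 by the stage in which their RNA first rose. Acr, Acrbp, Spink2, Zpbp and Zpbp2 rose in PD relative to LZ, by 2.41 to 4.77 on the log2 scale, and were not called between RS and PD. Acrv1, Spaca1, Spaca3, Spaca4 and Spaca7 rose in RS relative to PD, by 4.92 to 5.42, after PD means below those of LZ. A gene was called where limma's adjusted p over the 13260 genes tested was under 0.05 and the absolute log2 fold change at least 1. In PD relative to LZ, 5 of the 10 acrosomal genes rose and 1 fell, against 25.5% and 35.8% of all genes tested. In RS relative to PD, 5 rose and 0 fell, against 23.4% and 15.2%; in limma none was lower at an unadjusted p under 0.05. The medians of the 10 genes were 0.80 and 2.78 in these comparisons, and those of all genes tested were -0.36 and 0.02. The comparisons share the PD libraries, so the values of a gene in them are not independent. In the F test over the 5 stages, 10 of 10 genes were called, as were 97.2% of all genes tested.

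**Figure D1:**
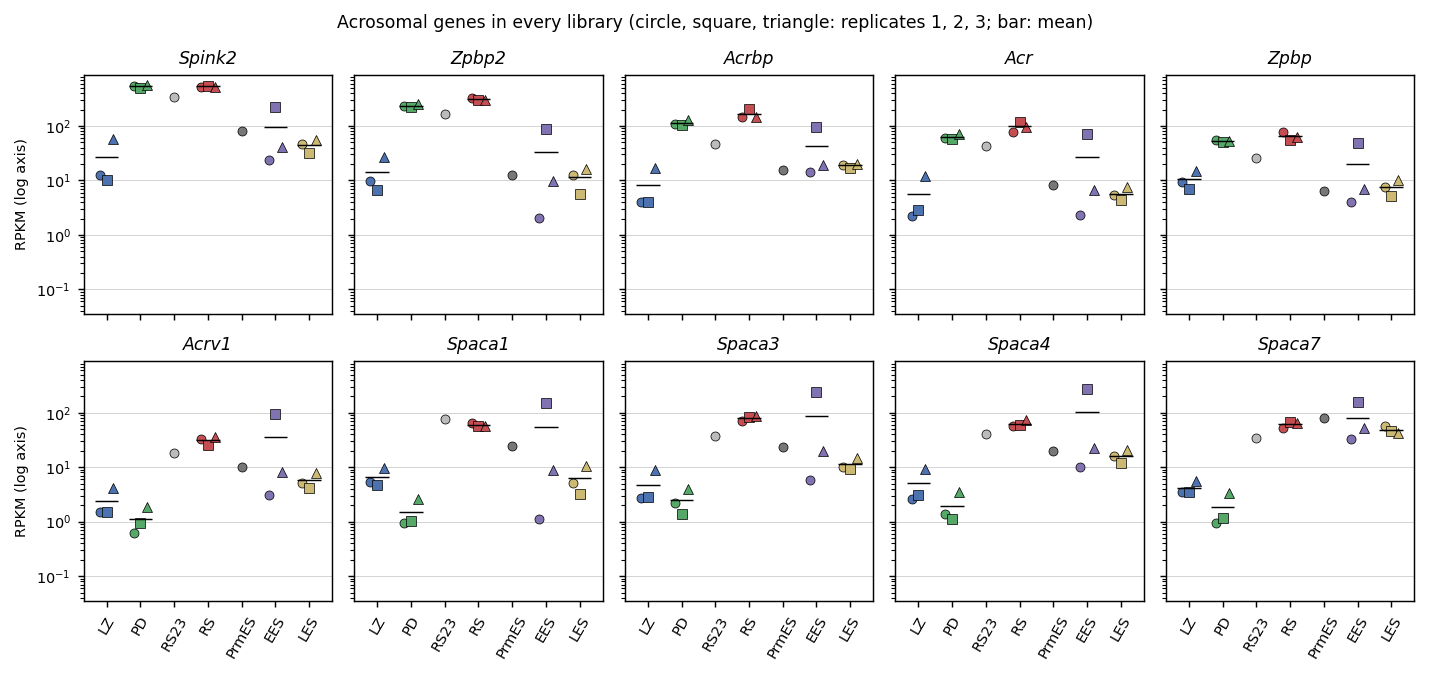
Level of each acrosomal gene (RPKM, log axis) in all 17 libraries, by stage; circles, squares and triangles are replicates 1, 2 and 3, bars are means of 3 libraries, and RS23 and PrmES are single libraries without a bar. The 5 genes of the top row are already high in PD, those of the bottom row are first high in RS, and the square of EES lies above the other EES libraries in all 10 panels.

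Acr encodes acrosin, the serine protease that is stored in the acrosomal matrix as the zymogen proacrosin. Its level was 2.23, 2.85 and 12.2 RPKM in LZ replicates 1, 2 and 3, then 58.9, 58.6 and 71.4 RPKM in PD and 78.5, 118 and 97.8 RPKM in RS. In EES it was 2.28, 72.3 and 6.77 RPKM, and in LES 5.39, 4.31 and 7.56 RPKM. All PD and RS libraries were above all LZ and LES libraries, and EES replicate 2 lay between the range of PD and that of RS. Acr rose by 3.87 ± 0.94 (log2 fold change ± SE; adjusted p = 0.00242) in PD relative to LZ. It fell by 3.22 ± 0.94 in EES relative to RS (adjusted p = 0.00696).

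Acrbp encodes the proacrosin-binding protein, which takes part in packing proacrosin into the acrosomal matrix. It followed Acr at a higher level, with 3.95 to 17.3 RPKM in LZ, 104 to 131 RPKM in PD and 145 to 203 RPKM in RS. Its EES libraries ran between 14.5 and 95.0 RPKM and its LES libraries between 17.0 and 20.1 RPKM. Its rise in PD relative to LZ was 4.12 ± 0.64 (adjusted p = 6.68e-05). LES averaged 18.8 ± 1.64 RPKM and LZ 8.41 ± 7.66 RPKM (SD, n = 3 each), and Acrbp was 1 of 2 acrosomal genes called higher in LES than in LZ (1.53 ± 0.64, adjusted p = 0.0382), where 24.1% of all genes tested rose. The other was Spaca7. Without LZ replicate 3 these genes stood at 2.23 ± 0.58 (Acrbp, adjusted p = 0.00373) and 3.78 ± 0.60 (Spaca7), and Spink2 (1.95 ± 0.67, adjusted p = 0.0174) and Spaca4 (2.46 ± 1.01, adjusted p = 0.0406) were called higher in LES as well, where 28.7% of all genes tested rose. Without EES replicate 2, 6 of the 10 genes were called higher in LES than in LZ, where 25.2% of all genes tested rose.

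Spink2 encodes a Kazal-type inhibitor of serine proteases that resides in the acrosome and whose loss impairs spermatid differentiation in mice. It had the highest level of the 10 genes in PD and RS, where it ranked 33 and 31 among 11698 protein-coding genes tested. Its level was 12.5, 10.2 and 58.5 RPKM in LZ replicates 1, 2 and 3, then 551, 498 and 555 RPKM in PD and 526, 548 and 527 RPKM in RS. In EES it was 23.9, 227 and 41.6 RPKM, and in LES 46.6, 32.5 and 54.6 RPKM. PD and RS libraries overlapped, with means of 534 ± 11.99 RPKM in RS and 535 ± 31.9 RPKM in PD (SD, n = 3 each), and their log2 fold change was 0.00 ± 0.72. Spink2 had the largest rise of the 10 genes in PD relative to LZ (4.77 ± 0.72, adjusted p = 5.69e-05), and its highest LZ value was that of replicate 3.

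Zpbp and Zpbp2 encode the zona pellucida binding proteins of the acrosomal matrix, both of which act in shaping the acrosome and sperm head in mice. Zpbp2 was at 9.79, 6.65 and 26.8 RPKM in LZ replicates 1, 2 and 3, then 236, 220 and 252 RPKM in PD and 324, 303 and 300 RPKM in RS. In EES it was 2.05, 88.0 and 9.97 RPKM, and in LES 12.4, 5.59 and 16.2 RPKM. The RS libraries lay above all PD libraries without a call, at 0.39 ± 0.97 on the log2 scale (adjusted p = 0.791). Zpbp2 rose by 4.29 ± 0.97 in PD relative to LZ (adjusted p = 0.0015), and its mean in LES was 3.69% of that in RS, the lowest such share of the 10 genes. Zpbp was at 7.03 to 14.8 RPKM in LZ, 50.1 to 54.3 RPKM in PD and 56.0 to 77.2 RPKM in RS. Its EES libraries ran between 4.01 and 48.3 RPKM and its LES libraries between 5.09 and 10.1 RPKM. Its rise in PD relative to LZ, 2.41 ± 0.67 (adjusted p = 0.00577), was the smallest of the 5, and its level in LZ replicates 1 and 2, 9.43 and 7.03 RPKM, was close to that of Zpbp2 there.

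LZ replicate 3 held the highest LZ value of all 10 genes, at 1.61 to 5.16 times the mean of LZ replicates 1 and 2, and 63.7% of all genes tested were also highest there. Without this library the same 5 genes rose in PD relative to LZ, and the rises were larger, from 2.69 ± 0.76 for Zpbp to 5.56 ± 0.67 for Spink2. The pachytene/diplotene markers that were high in this library moved with these values, and their part in them was not tested.

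**Figure D2:**
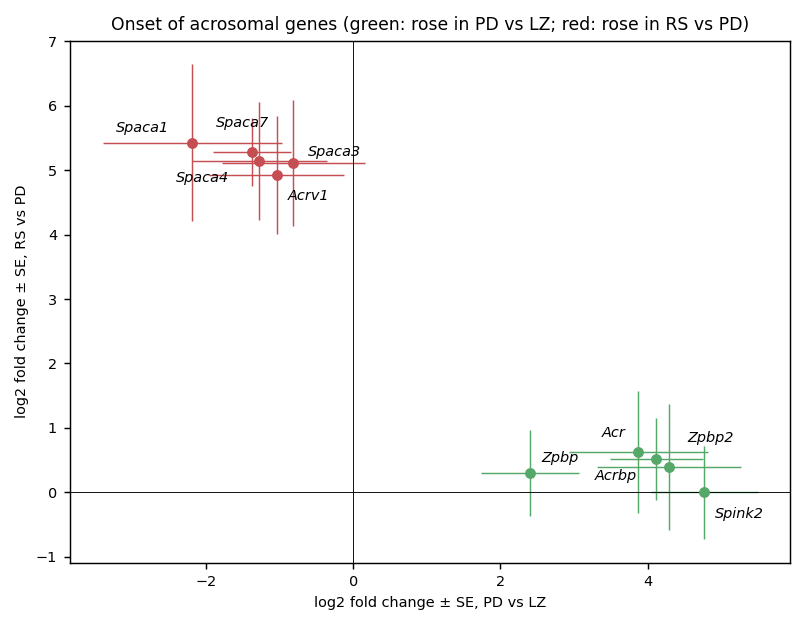
Log2 fold change ± SE of each acrosomal gene in RS relative to PD (vertical) against that in PD relative to LZ (horizontal); the 2 axes share the PD libraries. The 5 green genes rose by 2.41 to 4.77 in PD and lie near 0 on the vertical axis, and the 5 red genes lie left of 0 and rose by 4.92 to 5.42 in RS.

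Spaca1 encodes a membrane protein of the inner acrosomal membrane that is required for shaping the acrosome and sperm head in mice. Its level was 5.37, 4.78 and 9.53 RPKM in LZ replicates 1, 2 and 3, then 0.95, 1.04 and 2.57 RPKM in PD and 63.9, 56.4 and 57.2 RPKM in RS. In EES it was 1.11, 154 and 8.83 RPKM, and in LES 5.2, 3.26 and 10.7 RPKM. The RS libraries were above all PD libraries, and the EES libraries spread from the level of PD to more than that of any RS library. Spaca1 rose by 5.42 ± 1.22 in RS relative to PD (adjusted p = 0.0024), the largest rise and the largest SE of the 10 genes. Its PD values were below all LZ values, but the difference, -2.19 ± 1.22, was not called (adjusted p = 0.128).

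Spaca4 encodes a small surface protein of the Ly6/uPAR family, attached to the membrane by a lipid anchor, that helps mouse sperm to cross the zona pellucida. Its level was 2.56, 3.14 and 9.43 RPKM in LZ replicates 1, 2 and 3, then 1.36, 1.12 and 3.45 RPKM in PD and 56.0, 59.0 and 72.3 RPKM in RS. In EES it was 10.3, 273 and 22.5 RPKM, and in LES 16.1, 11.7 and 20.3 RPKM. EES replicate 2 stood at 4.37 times the mean of RS, the largest such ratio of the 10 genes. Spaca4 rose by 5.15 ± 0.92 in RS relative to PD (adjusted p = 0.000418).

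Spaca3 encodes a lysozyme-like protein of the acrosome without lysozyme activity. It was at 2.68 to 8.90 RPKM in LZ, 1.38 to 4.05 RPKM in PD and 70.4 to 85.5 RPKM in RS, with EES libraries between 5.82 and 236 RPKM and LES libraries between 9.45 and 14.8 RPKM. It rose by 5.11 ± 0.97 in RS relative to PD (adjusted p = 0.000712). Acrv1, the gene of the acrosomal matrix antigen SP-10, was at 1.52 to 4.13 RPKM in LZ, 0.63 to 1.85 RPKM in PD and 26.1 to 35.7 RPKM in RS, with EES libraries between 3.05 and 95.2 RPKM and LES libraries between 4.17 and 7.81 RPKM. Its rise in RS relative to PD was 4.92 ± 0.92 (adjusted p = 0.00061), and its RS mean, 31.7 ± 5.06 RPKM (SD, n = 3), was the lowest of the 10 genes. Its promoter, printed above, holds GTGTGT at -184 and, on the other strand, at -139 and -127.

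Spaca7 encodes a protein that mouse sperm release during the acrosome reaction. It was at 3.53, 3.47 and 5.64 RPKM in LZ replicates 1, 2 and 3, then 0.96, 1.18 and 3.42 RPKM in PD and 52.7, 67.4 and 65.8 RPKM in RS. In EES it was 32.5, 156 and 53.4 RPKM, and in LES 56.5, 46.3 and 43.3 RPKM. The LES libraries overlapped those of RS, which no other of the 10 genes showed. It rose by 5.28 ± 0.53 in RS relative to PD (adjusted p = 3.26e-06). It was also the single gene called as a fall in PD relative to LZ, at -1.38 ± 0.53 (adjusted p = 0.0329), a call lost in 8 of 26 alternative analyses, among them leaving out any LZ library (without LZ replicate 3, adjusted p = 0.114), PD replicate 1 or PD replicate 2. Without EES replicate 2, whose spread enters every error of the fit, Spaca1 (adjusted p = 0.00747) and Spaca4 (adjusted p = 0.0331) were called as falls in PD as well, and Spaca1 also without EES replicate 1 (adjusted p = 0.0263).

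PD libraries lay above all LZ libraries in 5 of the 10 genes (34.8% of all genes tested) and below them in 2 (46.3%), Spaca1 and Spaca7. Relative to PD, RS libraries were higher without overlap in 9 of the 10 (38.1%), all but Spink2, and lower in 0 (34.8%). Like Acrv1 and the 4 Spaca genes, the 8 markers of elongating spermatids were lower in PD, with sums of 76.3 to 283 RPKM in PD and 844 to 1416 RPKM in LZ, and none was at 0 in any library. The part of such RNA in the levels of the acrosomal genes was not tested. Sertoli cell markers also differed, at sums of 1.71 to 2.61 RPKM in PD and 58.1 to 108 RPKM in LZ. In RS, all 10 genes were above LZ, by 2.71 to 4.77 on the log2 scale, where 34.3% of all genes tested rose. Without LZ replicate 3 the range was 2.99 to 5.56, and all 10 were called, where 39.6% of all genes tested rose.

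In EES relative to RS, the group that had risen in PD fell, and the group that had risen in RS was not called. The falls were -4.66 ± 0.97 for Zpbp2, -3.22 ± 0.94 for Acr, -3.13 ± 0.72 for Spink2, -2.56 ± 0.67 for Zpbp and -2.45 ± 0.64 for Acrbp on the log2 scale (adjusted p = 0.000702 to 0.00696). In the other group the fold changes were -2.36 ± 1.22 for Spaca1, -1.41 ± 0.97 for Spaca3, -1.24 ± 0.92 for Acrv1, -0.64 ± 0.92 for Spaca4 and 0.07 ± 0.53 for Spaca7 (adjusted p = 0.0929 to 0.908). The 5 falls compare with 54.9% of all genes tested that fell and 15.8% that rose, and the median of the 10 genes was -2.40 against -1.42 for all genes tested. EES libraries were lower than RS libraries without overlap in the same 5 genes (57.2% of all genes tested) and higher in 0 (19.1%). No acrosomal gene rose, and none was higher at an unadjusted p under 0.05 in limma. In these bulk samples, fewer cells of a type and less RNA per cell cannot be told apart.

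Which genes were called in EES depended on EES replicate 2. Without this library 9 of the 10 genes fell in EES relative to RS, all but Spaca7, where 60.3% of all genes tested fell. The falls then included Spaca1 (-4.23 ± 0.72, adjusted p = 0.000107), Spaca3 (-2.89 ± 0.59, adjusted p = 0.000452), Acrv1 (-2.66 ± 0.54, adjusted p = 0.00045) and Spaca4 (-2.03 ± 0.56, adjusted p = 0.00444). Spaca7 stood at -0.56 ± 0.44 (adjusted p = 0.244). In the group that had risen in PD the falls were then -6.09 ± 0.64 for Zpbp2, -4.62 ± 0.60 for Acr, -4.08 ± 0.56 for Spink2, -3.63 ± 0.34 for Zpbp and -3.29 ± 0.48 for Acrbp. The medians were -4.08 in that group and -2.66 in the other, and the 2 ranges overlapped.

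**Figure D3:**
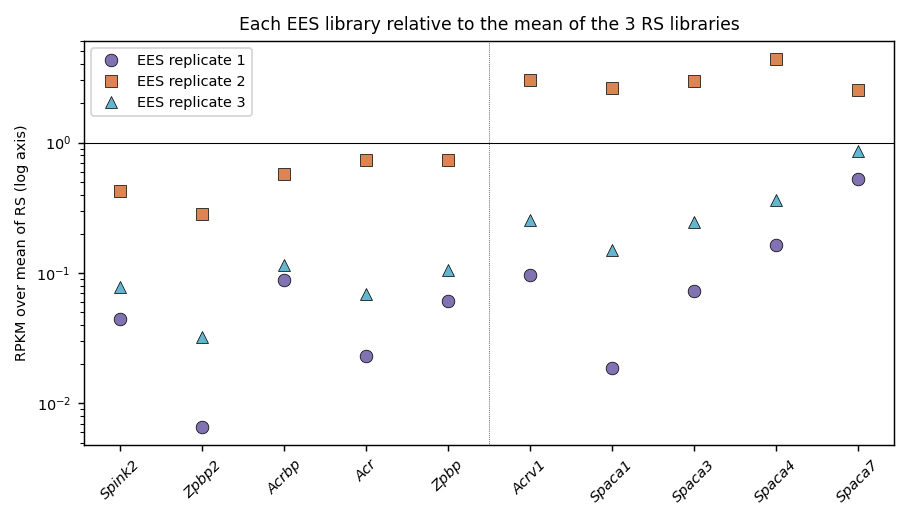
RPKM of each EES library divided by the mean of the 3 RS libraries (log axis), with the genes that rose in PD left of the dotted line and those that rose in RS right of it; the solid line marks the RS mean. Replicate 2 lies at 0.285 to 0.737 on the left and at 2.52 to 4.37 on the right, and replicate 1 is lowest for every gene.

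The 3 EES libraries had the same order in 10 of 10 genes, with replicate 1 lowest and replicate 2 highest, an order shared by 57.7% of all genes tested. EES replicate 2 was 3.64 (Spaca7) to 31.0 (Spaca1) times the mean of EES replicates 1 and 3. Relative to the mean of RS, it was at 0.285 to 0.737 in the 5 genes that rose in PD and at 2.52 to 4.37 in the 5 that rose in RS. In those last 5 it was the highest of all 15 libraries, whereas EES replicates 1 and 3 were below the RS mean in all 10 genes. EES replicate 2 was above every RS library in 5 of 10 acrosomal genes and 29.2% of all genes tested. The split between the groups was also present in other genes chosen by the same calls, a comparison made after the values were seen. Of 2851 other genes that rose in RS relative to PD and did not rise in PD relative to LZ, EES replicate 2 was above every RS library in 70.9%, with a median ratio to the RS mean of 2.62. Of 2710 other genes that rose in PD and were not called in RS, it was so in 12.6%, with a median ratio of 0.468. In the 2851 genes the median ratio to the RS mean was 1.11 in EES replicate 1, 1.31 in EES replicate 3 and 1.29 in LES, where the 5 acrosomal genes had medians of 0.0959, 0.256 and 0.180. In the 2710 genes these medians were 0.178, 0.206 and 0.212, and in the 5 acrosomal genes of that kind 0.0448, 0.0779 and 0.0835. As sums, elongating-spermatid markers were lower and pachytene/diplotene markers, whose sum was also high in RS, higher in this library than in the other EES libraries. The median of the pachytene/diplotene markers was 3.80 RPKM there, against 1.62 and 2.46 RPKM in EES replicates 1 and 3. The median of the round-spermatid markers was higher there too, at 93.8 RPKM, against 6.27 and 11.2 RPKM in EES replicates 1 and 3. The part of these markers in the levels of EES replicate 2 was not tested.

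Between LES and EES none of the 10 genes was called in limma, at fold changes of -1.42 to -0.23 (adjusted p = 0.882 to 0.969). None had an unadjusted p under 0.05 either. Among all genes tested, 0.00754% rose and 0% fell, and at an unadjusted p under 0.05 there were 886 genes higher and 33 lower. No acrosomal gene had LES and EES libraries without overlap, against 6.62% of all genes tested that were higher and 1.54% that were lower. Without EES replicate 2 the fold changes were between 0.04 (Spaca4) and 1.2 (Zpbp2), again with no call and with all 10 signs turned (adjusted p = 0.398 to 1). The median of all genes tested moved up as well, to 0.23, against 0.03 with all libraries. That of the 10 genes was 0.34, against -0.77. The share of all genes tested whose sign turned was not computed.

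In LES relative to RS, 8 of the 10 genes fell (55.4% of all genes tested) and 0 rose (17.4%), with a median of -3.13 against -1.43 for all genes tested. The falls ran from -4.89 ± 0.97 for Zpbp2 (adjusted p = 0.000471) and -4.11 ± 0.94 for Acr (adjusted p = 0.00132) to -2.82 ± 0.97 for Spaca3 (adjusted p = 0.0168) and -2.51 ± 0.92 for Acrv1 (adjusted p = 0.0232). Spaca4, at -1.99 ± 0.92 (adjusted p = 0.0614), and Spaca7, at -0.35 ± 0.53 (adjusted p = 0.554), were not called. Spaca4 was called at the same fold change without EES replicate 1 or 2 in the fit (adjusted p = 0.0271 and 0.00241). The call of Acrv1 was lost without RS replicate 1 or 3 or LES replicate 1 or 2 (adjusted p = 0.0535 to 0.0674), and that of Spaca1 without RS replicate 1 (adjusted p = 0.0501) or LES replicate 2 (adjusted p = 0.0704). LES libraries lay below all RS libraries in 9 of the 10 genes (63.2% of all genes tested) and above them in 0 (22.5%). The mean in LES was 3.69% to 11.6% of that in RS in the group that rose in PD, 10.8% to 25.7% for Spaca1, Acrv1, Spaca3 and Spaca4, and 78.6% for Spaca7. The comparison of LES with RS and that of EES with RS share the RS libraries.

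**Figure D4:**
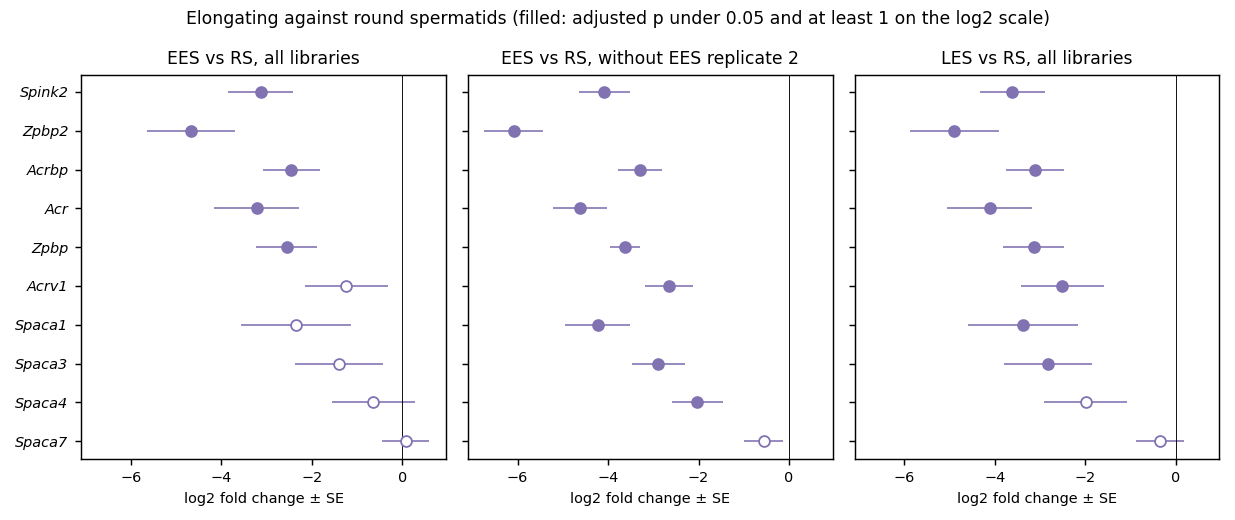
Log2 fold change ± SE of each acrosomal gene in EES relative to RS with all libraries (left), in EES relative to RS without EES replicate 2 (middle) and in LES relative to RS (right); filled points passed the threshold. Of the 10 genes, 5 fell in the left panel, 9 in the middle and 8 in the right, and Spaca7 stayed at -0.56 to 0.07.

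The falls in EES and LES depended in part on what a library is scaled to. When every library was centred on the median of the genes tested, the median of all genes in EES relative to RS moved to 0.02 and that in LES relative to RS to 0.12. The split of all genes tested then became 4306 higher and 3715 lower in EES relative to RS, against 2096 and 7286 as deposited, and 4679 higher and 3650 lower in LES relative to RS, against 2303 and 7340. On that scale Zpbp2 (-3.22), Acr (-1.77), Spink2 (-1.68) and Zpbp (-1.11) still fell in EES, and the same 4 genes with Acrbp (-1.57) still fell in LES, where Zpbp2 was at -3.35. Spaca7 rose on that scale, by 1.52 in EES (adjusted p = 0.00331) and 1.19 in LES (adjusted p = 0.0136). Acrv1, Spaca3 and Spaca4 turned sign in EES to 0.21, 0.04 and 0.81, without a call. Centring also moved the split of all genes in PD relative to LZ to 4443 higher and 3946 lower, against 3375 and 4745, and in RS relative to PD to 2895 higher and 2912 lower, against 3107 and 2017. The 5 rises in each of these comparisons were called on that scale too.

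Ordered by mean log2 level over the 5 stages, RS came first for 8 genes, PD for Spink2 and EES for Spaca7. The neighbours RS and PD at the top did not pass the threshold in any gene of the group that rose in PD, and PD was followed by EES (RS followed by EES in Spink2) with a called difference in all 5. EES relative to PD stood at -4.27 to -1.93 in these genes, where 53.8% of all genes tested fell, and at 3.07 to 5.35 in the other 5, where 24.2% rose. Without EES replicate 2 these ranges were -5.70 to -2.77, all 5 called (57.4% of all genes tested fell), and 1.19 to 4.72, with 4 of 5 called (23.2% rose). In Acrv1, Spaca1, Spaca3 and Spaca4 no pair of neighbouring stages in the order differed past the threshold, although RS was above PD and LZ in each. In Spaca7 the first 3 stages, EES, RS and LES, were not called against each other, and LES was above LZ by 3.56 ± 0.53 (adjusted p = 2.64e-05). The order depended on EES replicate 2: without it RS came first for 9 genes, Spaca7 included. LES then stood above EES in all 10, without a call, and the median of all genes tested in LES relative to EES was 0.23. The first 2 stages in the order, RS and LES in Acrv1, Spaca3 and Spaca4 and RS and LZ in Spaca1, then differed past the threshold.

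In the single libraries, which allow no test, RS23 was below the range of the RS libraries in 9 of the 10 genes, as in 46.9% of all genes tested. Its levels were 0.281 (Acrbp) to 0.643 (Spaca4) times the RS mean in these 9 genes. Spaca1 was the exception at 77.9 RPKM in RS23, against 56.4 to 63.9 RPKM in RS. PrmES was above the range of LES in 6 of the 10 genes (46.8% of all genes tested), inside it in Zpbp, Zpbp2 and Spaca4, and below it in Acrbp. The largest ratio of PrmES to the LES mean was 3.86, for Spaca1, at 24.7 RPKM in PrmES against 3.26 to 10.7 RPKM in LES. Spaca7 was at 79.8 RPKM in PrmES, against 43.3 to 56.5 RPKM in LES. Beside the EES libraries, PrmES lay inside their range for every acrosomal gene. EES replicate 2 set the top of that range, at 154 RPKM for Spaca1 and 156 RPKM for Spaca7. The lowest EES values of these genes were 1.11 and 32.5 RPKM. The share of all genes tested inside the EES range was not computed. Juvenile or reporter origin cannot be told apart from the staining, which differed, or from the single library.

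Pearson's r of the log2 values over the 15 libraries was 0.885 to 0.987 within the group that rose in PD and 0.707 to 0.991 within the group that rose in RS, and between -0.124 and 0.457 across them. All genes share the stages and the depth of the same 15 libraries, and the groups were formed from calls on them. These coefficients therefore describe the profiles, and the choice of groups fixes that they differ. The protein-coding genes outside the 10 with the most similar profiles had r of 0.984 to 0.999. They were Dcst1, Catsper3 and Lyzl6 for Acrv1; Lyzl6, Ftmt and Adam20 for Spaca3; Sgms2, Fam209 and Ctag2l2 for Spaca1; Pdilt, Spata46 and Fam135b for Spaca4. For Spaca7 they were Zdhhc19, Tex33 and 4930578I06Rik. In the other group, Lypd4, Jhy and Ccdc60 were most similar to Acr, and Drc7, Eno4 and Slc6a21 to Acrbp. Stpg4, Hunk and Mxra8 were most similar to Spink2. Those most similar to Zpbp were 2300009A05Rik, Sucla2 and Zbed3, and those most similar to Zpbp2 were Gm4871, 1700018F24Rik and Rxfp2. Stpg4 had the highest coefficient with Spink2 (r = 0.999), with 316 RPKM in RS and 325 RPKM in PD, where Spink2 was at 534 RPKM in RS and 535 RPKM in PD.

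Of 19 genes tested that build and attach the acrosome, 7 rose and 6 fell in PD relative to LZ, where 25.5% and 35.8% of all genes tested did. In RS relative to PD 5 rose and 3 fell, against 23.4% and 15.2% of all genes tested. The medians were 0.69 and -0.04. Spata16, a protein of the Golgi and the proacrosomal vesicles, had the largest rise in PD (4.62 ± 0.50) and averaged 327 ± 24.7 RPKM there, against 17.8 ± 17.2 RPKM in LZ. Fam209, a partner of the anchoring protein DPY19L2 in mice, had the largest rise in RS (5.03 ± 1.14) and was also among the genes most similar to Spaca1. In LES relative to RS, 5 of the 19 rose and 8 fell, against 17.4% and 55.4% of all genes tested. Actrt1, an actin-related protein of the perinuclear theca that lies under the acrosome, rose by 4.28 ± 0.43, to 84.2 ± 5.59 RPKM in LES, against 4.46 ± 1.43 RPKM in RS. Dpy19l2 had the largest fall (-3.52 ± 0.68).

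Of 11 genes tested of sperm-egg adhesion and fusion, 9 rose and 0 fell in RS relative to PD, against 23.4% and 15.2% of all genes tested, with a median of 4.96. In PD relative to LZ 1 rose and 4 fell, against 25.5% and 35.8%. Dcst2, needed in mice for fertilization by sperm, had the largest rise in RS (5.28 ± 0.64), at 21.8 ± 5.0 RPKM in RS, against 0.586 ± 0.288 RPKM in PD. The exception in PD was Izumo4, which rose by 2.76 ± 0.91 (adjusted p = 0.0155). In LES relative to RS, 3 rose and 6 fell, against 17.4% and 55.4%. Izumo2 averaged 242 ± 20.6 RPKM in LES, against 22.3 ± 3.60 RPKM in RS, a rise of 3.45 ± 0.35 (adjusted p = 2.05e-06), whereas Izumo4 had the largest fall (-5.05 ± 0.91).

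In the separate table of de novo genes, assembled from the same reads, each acrosomal gene was matched to the de novo gene with the largest exon overlap on its strand. The counts of rises and falls of the 10 genes were the same there in all 5 comparisons. The de novo gene of Acrbp spans more than Acrbp itself, with 11058 bases of exon, and its rise in PD relative to LZ was 2.71 ± 0.52 (adjusted p = 0.000417), against 4.12 ± 0.64 in the gene table. Others were longer too, among them those of Zpbp (10571 against 4248 bases), Spink2 (1892 against 788) and Spaca4 (4669 against 707). Spaca4 stood at 0.24 ± 0.64 there in EES relative to RS, against -0.64 ± 0.92 in the gene table. In LES relative to RS it was at -0.78 ± 0.64, against -1.99 ± 0.92, without a call in either table.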

How the data were processed

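RNA levels were measured by sequencing of 17 libraries. Per the labels, these are TruSeq libraries of total RNA from a Direct-zol extraction. The submitters' processing notes list Trim Galore, STAR and the builds GRCm38 and mm10. The sources used here give neither their versions nor strandedness. The authors deposited log2 values of 100 times RPKM plus 1, a pseudocount of 0.01 RPKM, which was checked on the values: in the de novo table, where exon lengths are given, 100% of them fell on whole reads within 0.01 read. In the gene table, a length that gives whole reads within 0.02 read was found for 23715 of 23715 genes above 0. The deposited annotation holds coordinates (unit other), from StringTie 1.3.4d per the file headers. The number of unused per-sample columns was 0.

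Genes at 1 RPKM or more in at least 3 of the 15 stage libraries were tested (13260 genes). All 15 libraries entered limma 3.58.1 (R 4.3.3) with eBayes and a mean-variance trend, without a block for replicate number; p-values were adjusted by Benjamini-Hochberg over all genes tested. Fold changes are on the deposited log2 scale, later stage minus earlier, and RPKM are printed with the pseudocount removed. The fit was tested on simulated data. Symbols, positions and promoters came from RefSeq (GRCm38.p6; 24570 gene IDs matched). The members and all gene lists were chosen with earlier results of these data known. All 10 genes are named; from each related list, the largest rise and the largest fall of a comparison may be named. The alternatives were other pseudocounts, no filter, 3 other scalings, array weights, a replicate block, the 2 stages compared alone, the de novo table and left-out libraries. Over all genes tested, deviations of same-numbered libraries from their stage means correlated weakly (r of -0.252 to 0.242). With 3 libraries per stage this cannot exclude that the numbers pair them, and the labels do not say. In the 10 genes, replicate 3 was highest of LZ in 10 (63.7% of all genes tested), of PD in 9 and of LES in 9. For PD and LES the share of all genes tested was not computed, so those counts do not set the 10 genes apart.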

Additional observations from a re-analysis of the deposited data

Results flagged for a closer look

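The de novo annotation holds loci on the strand opposite to 4 of the 10 genes that share exon bases with them and belong to no comparison of the report. Each had a mean in RS above the level of 3 reads in a library, and the stages hold no control group to set them against. The locus opposite Acrv1, from 36635757 to 36693274, averaged 1.99 RPKM in RS. The locus opposite Acr, from 89563236 to 89568526, averaged 3.24 RPKM. Opposite Acrbp, a locus from 125010169 to 125051281 averaged 97.1 RPKM, and a shorter one from 125053490 to 125054772, all 563 exon bases of which lie in Acrbp exons, averaged 339 RPKM. The locus opposite Zpbp, from 11462207 to 11517403, averaged 6.84 RPKM. The short locus within Acrbp was at 16.8 RPKM in LZ, 235 in PD, 339 in RS, 82.8 in EES and 37.4 in LES, the order of stages seen for Acrbp. Whether strand was used in the counting is not given in the sources used here, and reads of Acrbp and of this locus cannot be told apart without it.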

How the results depend on the processing

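Of the 24 calls of the 10 genes in the 5 comparisons, 19 were kept under all 26 alternatives, and 5 were lost under at least 1: Spaca7 in PD relative to LZ, Acrbp in EES relative to RS, and Acrv1, Spaca1 and Spaca3 in LES relative to RS. One value turned its sign past the threshold: Spaca7 in LES relative to RS, with libraries centred on their median, at 1.19. The number of genes that fell in PD relative to LZ, 1 as reported, was 0 with a pseudocount of 1 RPKM, with median centring and with quantile normalization, 3 with array weights, 2 without both LZ replicate 3 and EES replicate 2, 2 with the 2 stages alone, and 0 to 3 with 1 library left out (0 without LZ replicate 1, 2 or 3 or PD replicate 1 or 2, 2 without EES replicate 1, 3 without EES replicate 2). In EES relative to RS, 1 gene rose with centring, against 0, and 9 fell with array weights and without both libraries, against 5; with 1 library left out, 5 to 9 fell, the 9 without EES replicate 2. In LES relative to RS, centring gave 1 rise, against 0, and 5 falls, against 8. The cause was not tested. The estimation of array weights stopped before it converged, at a weight of 66.2 for EES replicate 3. With a replicate block, counts were as reported (5 rose and 1 fell in PD relative to LZ). Correlations of same-numbered libraries were -0.252 to 0.242, and 4 of 30 were over 0.1. In 7 of these 30 comparisons a library correlated best with its own number in the other stage.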

Other observations

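Of 22 other genes tested whose proteins belong to the acrosome or the sperm surface, 14 rose and 0 fell in RS relative to PD, against 23.4% and 15.2% of all genes tested. In PD relative to LZ 7 rose and 3 fell, against 25.5% and 35.8%. The medians were 4.0 and -0.69. Fam170b, an acrosomal protein, had the largest rise in RS (5.74 ± 0.63, adjusted p = 7.36e-06), at 86.8 ± 7.19 RPKM in RS, against 1.82 ± 1.15 RPKM in PD (SD, n = 3 each). Prss21, the gene of the sperm surface protease testisin, had the largest rise in PD (4.66 ± 0.64, adjusted p = 2.37e-05), at 49.1 ± 10.6 RPKM in PD, against 2.25 ± 1.66 RPKM in LZ.

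In LES relative to RS 5 of the 22 rose and 12 fell, against 17.4% and 55.4% of all genes tested, with a median of -1.82. Spesp1, a protein of the equatorial segment, had the largest fall (-4.70 ± 0.99, adjusted p = 0.000738), at 7.20 ± 3.33 RPKM in LES, against 173 ± 9.47 RPKM in RS. Prss55, a serine protease of sperm, had the largest rise (4.66 ± 0.38, adjusted p = 3.95e-07), at 218 ± 30.2 RPKM in LES, against 8.79 ± 2.46 RPKM in RS. In EES replicate 2 Prss55 was at 169 RPKM, against 279 and 241 RPKM in EES replicates 1 and 3, and Spesp1 at 78.6 RPKM, against 1.48 and 7.80 RPKM.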
